A study of Mus musculus with 6 samples.

Results

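The genes described here are 40 genes of mitosis and cytokinesis. They belong to the machinery that condenses chromosomes, builds the spindle, checks the attachment of chromosomes and divides the cell. Their symbols were chosen with earlier results of these data known. Shares of these genes set beside shares of all genes are therefore descriptions and not tests. Every probe set whose platform annotation gave 1 of these symbols was taken, which found 36 of the 40 genes on 48 probe sets, out of 8251 named genes. Bub1b, Ccnb1, Cdc25b and Tpx2 were not analysed here. RNA came from keratinocytes of the skin of K15-EGFP transgenic mice, in which the keratin 15 promoter drives enhanced green fluorescent protein (EGFP). This promoter is active in the bulge, the part of the hair follicle that holds its stem cells. Cells were sorted by flow cytometry into an EGFP-high and an EGFP-negative group, each α6 integrin positive and each of 3 samples with 1 array per sample. Not given in the sources used here are age, sex, hair cycle stage, any treatment, and whether each sample is its own animal or sort. The p-values therefore describe only how these samples differ from each other, which can include technical variation.

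Entry into mitosis is driven by the kinase Cdk1, which is switched on by its cyclins and small Cks subunits and by the removal of inhibitory phosphates by Cdc25 phosphatases. Aurora, Polo-like and NIMA-related kinases then act on the spindle and on kinetochores, the spindle checkpoint holds the anaphase-promoting complex in check until chromosomes are attached, and centralspindlin, Prc1, Ect2 and anillin set the cleavage plane. Most of these transcripts are made in the G2 and M phases, so in tissue their level is read as a mark of cycling cells. Bulge stem cells are known to divide rarely outside the growth phase of the hair cycle, whereas basal cells of the epidermis and of the growing follicle divide often.

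The sorted cells were checked against their markers. Cd34, which marks the surface of bulge cells in mice, read 1339, 1579 and 1450 on the EGFP-high arrays 1, 2 and 3 and 34.4, 29.4 and 40.9 on the EGFP-negative arrays, in deposited intensity units. Itga6, the gene of the α6 integrin of both gates, was well above background on all 6 arrays (405.6 to 585.3 in EGFP-high and 1050 to 1371 in EGFP-negative). It was itself lower in EGFP-high samples (log2 -1.26, limma, adjusted p = 0.00449). The probe sets of Krt15 and Krt14 lay at or below the 95th percentile of 19 bacterial and yeast control probe sets on all 6 arrays, and that of Krt5 on 5 of them, so these keratins offer no check of the sort. That percentile, 25.5 to 42.3 depending on the array, is called the control level below. Across tested probe sets, arrays of 1 group correlated at 0.922 to 0.948 and arrays of different groups at 0.839 to 0.905.

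Mitosis and cytokinesis genes were lower in EGFP-high than in EGFP-negative keratinocytes. Of the 34 genes that passed the filter on low values, 12 were lower and 0 higher at an adjusted p under 0.05 (limma, Benjamini-Hochberg over 7453 probe sets), and 24 were lower and 0 higher at an unadjusted p under 0.05, where 9.06% of all tested genes were lower and 8.71% higher. The 12 were Anln, Prc1, Kif23 and Kif20a of cytokinesis, Nusap1, Stmn1 and Kif11 of the spindle, Cks2 and Ccnb2 of the Cdk1 complex, and Aurkb, Mad2l1 and Top2a. Among all 5628 tested genes, each represented by its brightest probe set, 2.27% were lower and 3.06% higher, against 35.3% of the 34 lower. In bulk samples such as these, fewer cycling cells and less of each transcript per cell cannot be told apart. The groups did not overlap, with every EGFP-high array below every EGFP-negative array, for 24 of the 34 genes (70.6%), where 11.5% of all tested genes did so, and for 0 in the other direction (11.9% of all tested genes). The log2 difference was below 0 for 33 of the 34 (97.1%, against 50.2% of all tested genes). Its median was -0.94, against -0.0017 for all tested genes, on the scale of log2(intensity + 19.3), which understates the change of dim genes.

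Members entered the test through their mean over all 6 arrays, so a gene could pass because of its level in EGFP-negative cells. This applied to 5 of the 34, whose EGFP-high mean log2 value lay below the filter level, and to 3 of the 12 that fell. Without any filter the 36 genes on the array had a median of -0.93, against 0.01 for all genes on the array, and 25 of the 36 did not overlap in that direction (9.26% of all genes on the array). The 2 genes that failed the filter were Bub1, a checkpoint kinase, and Cenpe, a kinetochore motor. The brightest of 3 Bub1 probe sets read 19.7 to 28.3 in EGFP-high and 37.3 to 44.4 in EGFP-negative samples. The other Bub1 probe sets and both of Cenpe lay below the control level on all 6 arrays.

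**Figure D1:**
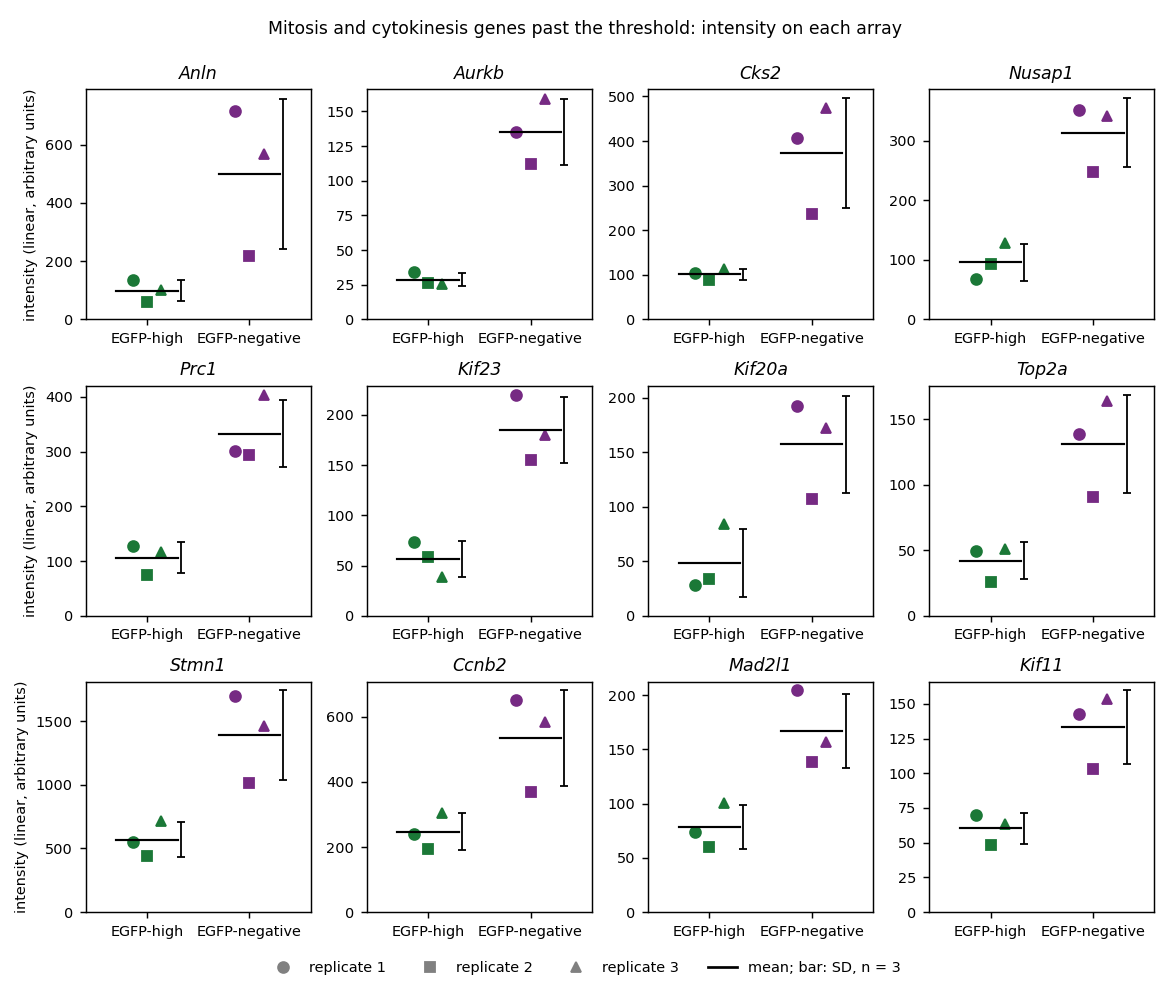
Intensity of the 12 genes past the threshold on each array, on a linear axis from 0 in arbitrary units; symbols mark the replicate number, horizontal lines the group mean and vertical bars the SD (n = 3). In all 12 panels the EGFP-high arrays lie below the EGFP-negative arrays, and EGFP-negative replicate 2 is the lowest of its group.

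The same replicate numbers, 1 to 3, occur in each group, and deviations from the group means correlated between arrays of the same number at 0.336, 0.368 and 0.305 across tested probe sets. With the replicate number as a block, a pairing inferred from these correlations, 22 of the 34 genes were lower and 0 higher. Of all tested genes 5.33% were lower and 5.29% higher. This fit left 2 residual degrees of freedom. The 22 included all 12. The other 10 were Mki67, Cdk1, Racgap1, Kif22, Birc5, Cdc20, Ect2, Smc2, Smc4 and Nek2. The count without the block depended on single arrays: leaving out EGFP-high replicate 2, EGFP-negative replicate 1 or EGFP-negative replicate 3 gave 5 genes lower, and leaving out EGFP-negative replicate 2 gave 17. When the pair of arrays of a number was left out, the count came to 6 (number 1), 7 (number 2) and 0 (number 3). With no filter on low values 7 of the 36 genes were lower, where 130 of all 12422 probe sets were lower and 197 higher. Ccnb2, Kif11, Kif20a, Mad2l1 and Top2a then missed the threshold (adjusted p 0.0637 to 0.0928). Aurkb, Cks2, Kif23, Nusap1 and Prc1 stayed past the threshold without any 1 of the 6 arrays.

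Promoters of mitotic genes are known to hold the cell cycle genes homology region (CHR) and CCAAT boxes, which DREAM and B-Myb complexes and NF-Y bind. The 250 bases before the annotated start were searched on both strands for TTTGAA, the CHR letters, and for CCAAT, in RefSeq promoter sequence of the GRCm38.p6 build. Of 29 members with an entry, 14 (48.3%) held TTTGAA and 24 (82.8%) held CCAAT, against 908 (13.8%) and 2630 of the 6572 genes on the array with an entry. Both motifs occurred in 13 of the 29 (44.8%), against 5.13%. The shares were no higher among the genes that fell: TTTGAA occurred in 4 of 9 of them and in 10 of 20 of the other members, and CCAAT in 6 of 9 and 18 of 20. Those other members include Mki67, Cdk1, Kif22, Cdc20, Ect2, Smc2, Racgap1, Birc5 and Nek2, which were lower with the block. They also include Bub1 and Cenpe, which were not tested. This split therefore cannot compare genes that differ between the groups with genes that do not. The letters TTTCGCGC, TTTGGCGC or TTTCCCGC of E2F sites occurred in 1 of the 29, Cdk1 (3.45%, against 3.27%). A match is a run of letters and not a measured site. A gene with several promoter entries counted if any of them matched, and the CCAAT matches of Ube2c include an overlapping pair on opposite strands. The 100 bases before the start are given for 8 members that bear on the results: Top2a, Kif11, Prc1, Ccnb2 and Cks2 fell, Cdk1 and Cdc20 passed only with the block, and Cks1b passed in neither fit. Capitals mark the letters of these motifs or their reverse complements.
Top2a, chr11:99024190-99024289, minus strand: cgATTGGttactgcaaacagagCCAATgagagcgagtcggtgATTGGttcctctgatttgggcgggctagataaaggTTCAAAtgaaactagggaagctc
Kif11, chr19:37376282-37376381, plus strand: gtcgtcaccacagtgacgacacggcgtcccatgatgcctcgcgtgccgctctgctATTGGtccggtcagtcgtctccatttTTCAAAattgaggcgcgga
Cdc20, chr4:118437344-118437443, minus strand: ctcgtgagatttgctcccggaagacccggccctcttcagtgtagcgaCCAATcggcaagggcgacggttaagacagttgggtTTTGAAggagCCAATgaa
Cdk1, chr10:69352913-69353012, minus strand: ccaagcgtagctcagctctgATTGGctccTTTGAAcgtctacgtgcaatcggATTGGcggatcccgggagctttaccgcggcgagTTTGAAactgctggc
Prc1, chr7:80294376-80294475, plus strand: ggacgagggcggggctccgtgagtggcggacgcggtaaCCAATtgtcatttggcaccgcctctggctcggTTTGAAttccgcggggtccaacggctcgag
Ccnb2, chr9:70421555-70421654, minus strand: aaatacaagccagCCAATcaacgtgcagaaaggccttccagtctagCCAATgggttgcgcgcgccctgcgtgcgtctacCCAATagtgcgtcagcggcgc
Cks2, chr13:51645132-51645231, plus strand: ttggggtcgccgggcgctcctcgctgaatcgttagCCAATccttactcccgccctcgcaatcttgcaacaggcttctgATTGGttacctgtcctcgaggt
Cks1b, chr3:89418292-89418391, minus strand: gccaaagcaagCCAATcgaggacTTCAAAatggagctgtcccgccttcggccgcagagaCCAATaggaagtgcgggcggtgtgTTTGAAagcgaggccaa
In Top2a, Kif11, Cdc20, Cdk1, Prc1 and Cks1b a TTTGAA match began 15 to 30 bases before the start. Prc1 has 2 entries, and the other, which starts further upstream, holds a CCAAT match only. Ccnb2 held 3 CCAAT matches at intervals of 33 bases in this window, and its TTTGAA match lay 167 bases before the start. Cks2 held 2 CCAAT matches and no TTTGAA, whereas Cks1b, whose intensity differed little between the groups, held 2 TTTGAA and 4 CCAAT matches within the 250 bases.

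Cytokinesis genes had the lowest median among the roles, -1.44 over 6 tested genes, and 4 of the 6 fell. Anln encodes anillin, a scaffold of the contractile ring that binds actin, myosin and septins. It read 133.6, 60.3 and 100.5 on EGFP-high arrays 1, 2 and 3 and 714.5, 216.3 and 566.7 on the EGFP-negative arrays. Every EGFP-high value was below the lowest EGFP-negative value, and EGFP-negative replicate 2 stood well below the other arrays of its group. The log2 difference was -2.04 (SE 0.41, adjusted p = 0.0216), and the call was lost without any 1 of 4 of the 6 arrays (adjusted p as high as 0.0845, with EGFP-high replicate 2 left out).

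Prc1, which bundles the antiparallel microtubules of the central spindle, read 127.6, 73.8 and 116.9 in EGFP-high and 301.5, 294.1 and 404 in EGFP-negative samples (log2 -1.50, SE 0.22, adjusted p = 0.00459). Kif23 is the motor subunit of centralspindlin, the complex that recruits Ect2 to the midzone. It read 73.7, 58.1 and 38.3 against 220, 154.7 and 179.9 (log2 -1.44, SE 0.23, adjusted p = 0.00659). For both genes every EGFP-high array lay below the lowest EGFP-negative array. Kif20a, a kinesin that brings the passenger complex to the midzone, read 28.1, 33.5 and 84.5 against 192.1, 107.3 and 172.3 (log2 -1.43, SE 0.33, adjusted p = 0.039). Its EGFP-high level was above the control level only on replicate 3, and its call was lost without any 1 of 4 arrays (highest adjusted p 0.139, with EGFP-high replicate 2 left out). That probe set is a family design, which related transcripts may also bind. A second Kif20a probe set lay below the control level on all 3 EGFP-high arrays and was at least 1.34-fold higher in EGFP-negative samples, with the EGFP-high arrays set to the control level. It was above that level on 2 of the 3 EGFP-negative arrays. Its groups overlapped, with EGFP-high replicate 3 at 18.7 and EGFP-negative replicate 2 at 16.4.

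Racgap1, the GTPase-activating subunit of centralspindlin, read 73.4, 19.3 and 59.3 in EGFP-high and 186, 105.8 and 168.2 in EGFP-negative samples. The groups did not overlap, EGFP-high replicate 2 lay below the control level, and the gene missed the threshold (log2 -1.37, SE 0.34, adjusted p = 0.0566) but passed with the block (adjusted p = 0.00349). Ect2, the exchange factor that activates RhoA at the cleavage site, had overlapping groups, 63 to 97.2 against 89.6 to 264.6. Its log2 difference was -0.96 (adjusted p = 0.181, 0.0234 with the block).

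Among spindle motors and microtubule regulators 3 of 4 tested genes fell, with a median of -1.09. Nusap1, which binds spindle microtubules near chromosomes, read 67, 92.3 and 127.5 in EGFP-high and 351, 247 and 341.8 in EGFP-negative samples (log2 -1.55, SE 0.23, adjusted p = 0.00521). That probe set, like those of Kif22 and Ube2c, is not of the standard design. An alternative with only standard probe sets left these genes out. A second Nusap1 probe set failed the filter and read 32.5, 34.9 and 4.2 against 38, 51.4 and 35.8 (log2 -0.59). Stmn1, the microtubule-destabilising protein stathmin, read 551.8, 444.1 and 715.4 against 1700.3, 1011.1 and 1459.8 (log2 -1.25, SE 0.24, adjusted p = 0.0162), so even its highest EGFP-high array was below its lowest EGFP-negative array. Its call was lost without any 1 of 3 arrays (highest adjusted p 0.0683, with EGFP-high replicate 2 left out) and when its probe sets were averaged (adjusted p = 0.0865), the other of which was below the control level on all 6 arrays. Kif11, the motor that pushes spindle poles apart, read 70, 48 and 63.3 against 143, 102.9 and 153.7 (log2 -0.93, SE 0.21, adjusted p = 0.0377), a call lost without any 1 of 4 arrays (highest adjusted p 0.138, with EGFP-negative replicate 3 left out). Kif2c, a microtubule-depolymerising kinesin at centromeres, had overlapping groups and a log2 difference of -0.39 (95% interval -0.88 to 0.11).

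Of the cyclins, Cdk1 and its activators, 2 of 6 tested genes fell, with a median of -0.80. Cks2, a small subunit that binds Cdk1, read 103, 88.6 and 113.3 in EGFP-high and 406.4, 235.7 and 474.9 in EGFP-negative samples (log2 -1.65, SE 0.25, adjusted p = 0.00548). Its close relative Cks1b read 194.4, 134.6 and 175.5 against 222.6, 127.2 and 206.9, and those groups overlapped. The 95% interval was -2.21 to -1.09 for Cks2 and -0.63 to 0.41 for Cks1b. These intervals did not overlap, and the difference between the genes was not tested.

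Ccnb2, a B-type cyclin, read 240.2, 193.6 and 306.1 in EGFP-high and 652, 369.9 and 582.8 in EGFP-negative samples (log2 -1.04, SE 0.24, adjusted p = 0.0432). Leaving out any 1 of 5 arrays ended this call (highest adjusted p 0.157, with EGFP-high replicate 2 left out), as did quantile normalization and a fit without the intensity trend. The A-type cyclin Ccna2, which acts in S phase and G2, did not overlap between groups, at 297.1 to 368.9 against 370.3 to 447.5. Its log2 difference was only -0.28 (95% interval -0.65 to 0.09, adjusted p = 0.446). Cdk1 itself read 91, 22.7 and 155.5 against 309.4, 178 and 300. EGFP-high replicate 2 was below the control level and replicate 3 was close to the lowest EGFP-negative array, and the gene missed the threshold (log2 -1.56, SE 0.46, adjusted p = 0.104) but passed with the block (adjusted p = 0.00603). Cdc25c, a phosphatase that activates Cdk1, had a log2 difference of -0.56 on its brighter probe set (95% interval -1.13 to 0.02), a design that several transcripts share.

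The 4 mitotic kinases differed in their values. Aurkb, the kinase of the chromosomal passenger complex, read 34.1, 26.4 and 25.7 in EGFP-high and 135, 111.8 and 159.1 in EGFP-negative samples (log2 -1.68, SE 0.21, adjusted p = 0.00213). It had the smallest adjusted p of the 34 genes, and only replicate 3 of its EGFP-high arrays was above the control level, by a small margin, so the pseudocount sets the size of the difference in part (log2 -0.999 to -2.06 among the alternatives that kept all arrays). Aurka, the related kinase of centrosomes and spindle poles, had a log2 difference of -0.79 (95% interval -1.34 to -0.24, adjusted p = 0.119), and its interval overlapped that of Aurkb, -2.15 to -1.21. Nek2, a kinase of centrosome separation, missed the threshold (log2 -0.63, adjusted p = 0.102) and passed with the block (adjusted p = 0.0449).

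Plk1, a Polo-like kinase of mitotic entry and spindle assembly, was measured on 3 probe sets that disagreed. The brightest read 342.5, 355.8 and 280.7 in EGFP-high and 154.6, 247.7 and 376.8 in EGFP-negative samples, a log2 difference of 0.38 (95% interval -0.25 to 1.01). It was the only one of the 34 genes with a difference above 0. A second probe set read 146.5, 120.3 and 166.3 against 298.7, 209.5 and 238.7, without overlap (log2 -0.71, adjusted p = 0.0728, 0.0241 with the block), and the last had a log2 difference of -0.62. The brightest and the dimmest are family designs, which related transcripts may also bind. The mean of the 3 was -0.31, so the direction for Plk1 depends on the probe set.

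**Figure D2:**
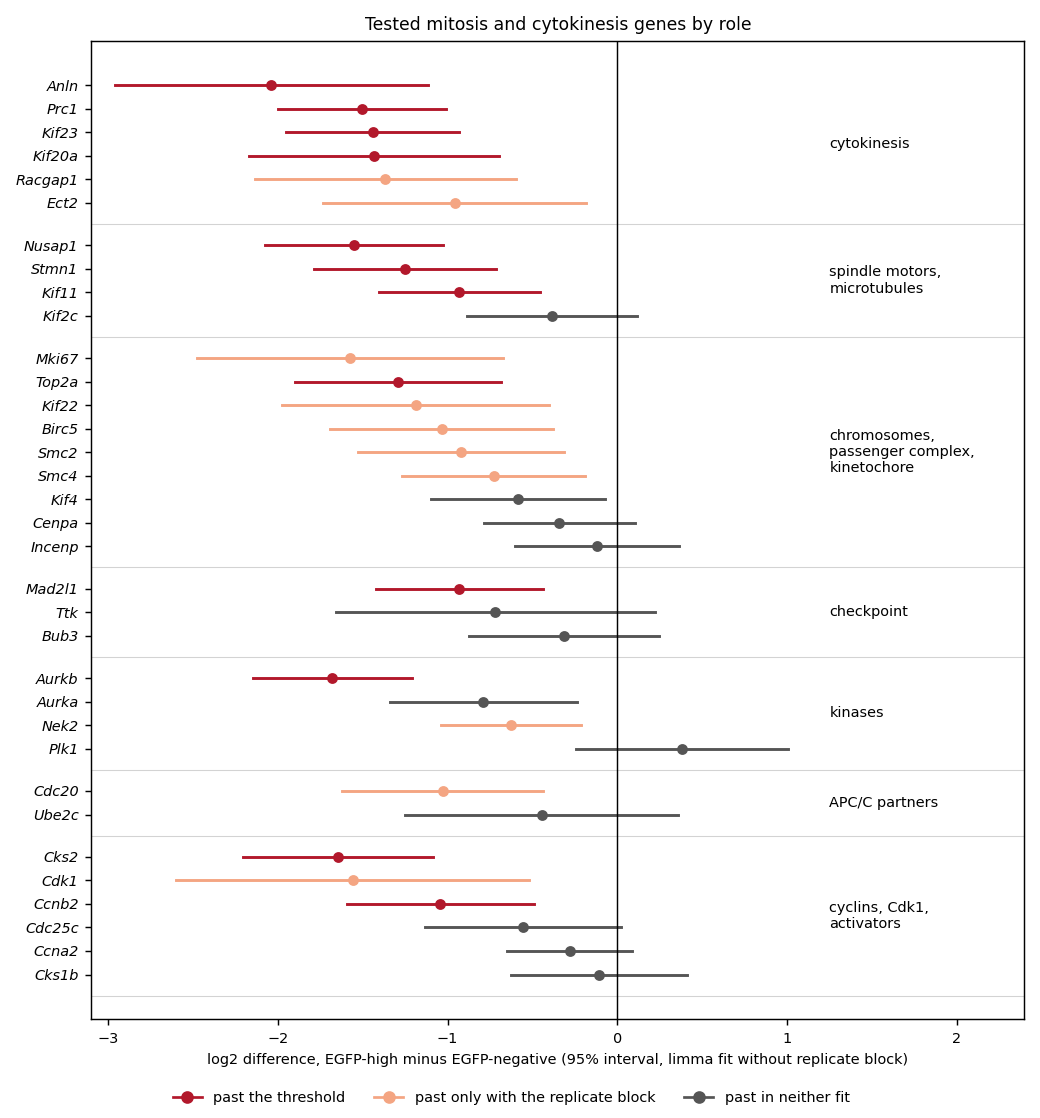
Log2 difference between EGFP-high and EGFP-negative samples for the 34 tested genes, grouped by role; points are estimates of the limma fit without the replicate block and lines their 95% intervals. All points except that of Plk1 lie below 0, and all 6 cytokinesis genes have intervals below 0.

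Of the spindle checkpoint genes, Mad2l1, Bub3 and Ttk were tested. Mad2l1 encodes Mad2, which restrains Cdc20 until chromosomes are attached. It read 74.2, 60.4 and 101 in EGFP-high and 204.6, 138.1 and 157.2 in EGFP-negative samples (log2 -0.93, SE 0.22, adjusted p = 0.0432). Leaving out any 1 of the 6 arrays ended this call (highest adjusted p 0.153, with EGFP-high replicate 2 left out). Bub3, a checkpoint scaffold, read 255.1 to 412.8 against 343.8 to 584.9 on its brighter probe set, with overlap (log2 -0.31, 95% interval -0.87 to 0.25). The checkpoint kinase Ttk read 106.4, 17.3 and 35.5 against 106.8, 61.7 and 90.6, so that replicate 1 was at the same level in both groups (log2 -0.72, 95% interval -1.66 to 0.22).

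Cdc20, the activator of the anaphase-promoting complex, read 152.2 to 230.1 in EGFP-high and 289.4 to 573.9 in EGFP-negative samples, without overlap (log2 -1.03, adjusted p = 0.061, 0.0034 with the block). Ube2c, the ubiquitin-conjugating enzyme of that complex, was measured on 1 probe set with overlapping groups (log2 -0.44, 95% interval -1.25 to 0.36).

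Of 9 tested genes of chromosome structure, the passenger complex and the kinetochore, 1 fell and 6 were lower with the block. Top2a, the topoisomerase that untangles sister chromatids, read 49.8, 25.5 and 50.8 in EGFP-high and 138.4, 90.5 and 164.2 in EGFP-negative samples (log2 -1.29, SE 0.27, adjusted p = 0.0253). Its call was lost without any 1 of 4 arrays (highest adjusted p 0.103, with EGFP-negative replicate 3 left out). Mki67 encodes Ki-67, a coat protein of mitotic chromosomes used as a stain for cycling cells. It read 41.8, 27.2 and 94.8 against 217.3, 102.2 and 278.4. EGFP-high replicate 3, the only EGFP-high array above the control level, came close to EGFP-negative replicate 2, and the gene missed the threshold (log2 -1.57, SE 0.40, adjusted p = 0.0589, 0.00171 with the block). A second Mki67 probe set read 99.5 to 122.5 against 73.3 to 109.6 (log2 0.26, adjusted p = 0.564), opposite in sign.

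Birc5, the passenger protein survivin, read 52.4, 43.1 and 40.2 in EGFP-high and 137.6, 63.7 and 156.8 in EGFP-negative samples (log2 -1.04, SE 0.29, adjusted p = 0.0884, 0.0371 with the block). Incenp, the scaffold that holds survivin and Aurkb together, read 66.8 to 108.4 against 85.3 to 117.8 (log2 -0.12, 95% interval -0.60 to 0.36), and its second probe set gave log2 0.08. The passenger complex genes thus ranged from -1.68 for Aurkb to -0.12 for Incenp. Kif22, a chromosome-arm kinesin, read 171, 86.8 and 180.6 against 384, 203.1 and 514, without overlap (log2 -1.19, SE 0.35, adjusted p = 0.101, 0.00194 with the block). The condensin subunits Smc2 (log2 -0.92) and Smc4 (log2 -0.73) passed only with the block. Cenpa, the histone of centromeres, had a log2 difference of -0.34 (95% interval -0.79 to 0.11), and Kif4, a chromokinesin, one of -0.59 (adjusted p = 0.219) without overlap.

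The members varied together between arrays of the same group. EGFP-negative replicate 2 was the lowest array of its group for 30 of the 34 genes, where it was lowest for 28.0% of all tested genes. EGFP-high replicate 2 was the lowest of its group for 23 of the 34, against 34.0% of all tested genes. Both held for 21 of the 34 genes, and for 14.4% of all tested genes. The median intensity over the 34 genes was 90.8, 63.8 and 96.2 on EGFP-high arrays 1, 2 and 3 and 198, 133 and 177 on EGFP-negative arrays 1, 2 and 3. The median SD over arrays was 0.30 in EGFP-high and 0.39 in EGFP-negative samples on the log2 scale, against 0.22 in each group for all tested genes.

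Within numbers, the median log2 difference over the 34 genes was -1.13, -0.854 and -0.996 for numbers 1, 2 and 3, and 30 of the 34 were lower in EGFP-high in all 3 numbers, as were 22.7% of all tested genes. The ratio of the 3′ to the 5′ Actb control probe set, a measure of RNA integrity, was 1.42, 2.03 and 1.51 on EGFP-high arrays 1, 2 and 3 and 1.26, 1.59 and 1.41 on the EGFP-negative arrays. It was higher in EGFP-high in all 3 numbers and highest at number 2 in each group. The same ratio for Gapdh was 0.829, 1.48 and 0.917 on the EGFP-high and 0.885, 1.15 and 0.77 on the EGFP-negative arrays, also highest at number 2 but lower in EGFP-high at number 1. The part of RNA integrity in these results was not tested.

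**Figure D3:**
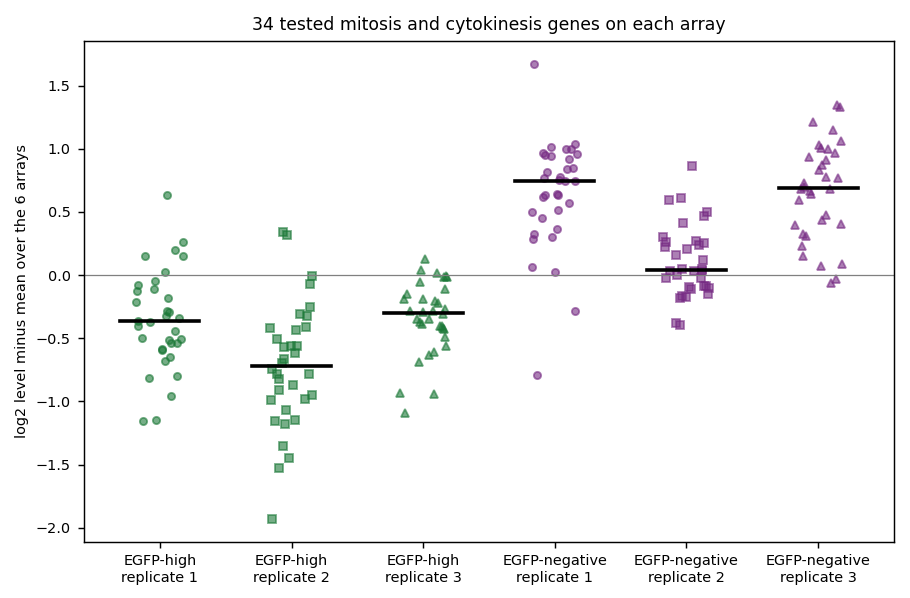
Log2 level of each of the 34 tested genes on each array, minus that gene's mean over the 6 arrays; points are genes, symbols mark the replicate number and black lines are medians. The medians of the 3 EGFP-high arrays lie below 0 and those of the EGFP-negative arrays above 0, with replicate 2 the lowest in each group.

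Other cell cycle genes were read from lists of names, against the same shares of all tested genes (2.27% lower and 3.06% higher, 5.33% and 5.29% with the block). Of 35 tested mitosis genes outside the 34, 2 fell and 0 rose, with a median log2 difference of -0.19 (6 lower with the block). At an unadjusted p under 0.05 (limma) 12 of the 35 were lower and 1 higher, against 9.06% and 8.71% of all tested genes. Groups did not overlap, with EGFP-high lower, for 13 of them (11.5% of all tested genes), and 28 had a log2 difference below 0 (50.2%). Ckap2, a spindle-associated protein, read 52.6, 10.9 and 65.8 against 212.1, 120.4 and 237.3 (log2 -1.83, SE 0.39, adjusted p = 0.0309), a call lost without EGFP-negative replicate 1 or 3 (highest adjusted p 0.111), with no filter and with a smaller pseudocount. Wee1, the kinase that inhibits Cdk1, read 48.7, 66.9 and 72 against 119.4, 134.5 and 248.8 (log2 -1.14, SE 0.27, adjusted p = 0.0443), a call lost without any 1 of 5 arrays (highest adjusted p 0.113), with no filter and with a larger pseudocount. This list includes subunits of cohesin and of the anaphase-promoting complex that are made throughout the cell cycle. Of its 49 genes on the array 35 passed the filter, against 34 of the 36 members. The median of -0.19 leaves out the others, which were mostly below 0 and ranged from log2 -0.88 (Tacc3) to 0.26 (Ccna1).

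Of 33 tested DNA replication genes 1 fell, Uhrf1, which guides maintenance methylation at replication forks, and 0 rose, with a median of -0.21 (3 lower and 1 higher with the block). Uhrf1 read 28.4, 24.6 and 35.3 against 156.9, 67.4 and 122.9 (log2 -1.42, SE 0.28, adjusted p = 0.0214). This call, the only one of its list, was lost without any 1 of 4 arrays, namely replicate 2 or 3 of EGFP-high and replicate 1 or 3 of EGFP-negative (highest adjusted p 0.0864), and with no filter (adjusted p = 0.0504). A count of 1 of 33 lower, or 3 of 33 with the block, is near the share over all tested genes. Measures without that threshold lay further from the shares over all tested genes. At an unadjusted p under 0.05 (limma) 7 of the 33 were lower and 1 higher (9.06% and 8.71% of all tested genes). Groups did not overlap, with EGFP-high lower, for 9 of them (11.5%), and 25 had a log2 difference below 0 (50.2%). Of 16 tested G1 cyclins, CDKs and inhibitors 1 fell, the D-type cyclin Ccnd2 (43.7, 69.3 and 71.6 against 206.1, 149.9 and 237.8, log2 -1.42, SE 0.23, adjusted p = 0.00704), and 0 rose, with a median of -0.08 (2 lower and 1 higher with the block). The Ccnd2 call held without any 1 of the 6 arrays (highest adjusted p 0.0336). At an unadjusted p under 0.05 (limma) 5 of the 16 were lower and 3 higher (9.06% and 8.71% of all tested genes). Groups did not overlap for 4 genes with EGFP-high lower and for 3 with EGFP-high higher (11.5% and 11.9%). A log2 difference below 0 was found for 10 of the 16 (50.2%). The difference between these lists and the 34 genes was not tested. The 4 calls in these lists came to 13 with the block, to 1 with no filter and to 0 without both arrays of number 3.

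**Figure D4:**
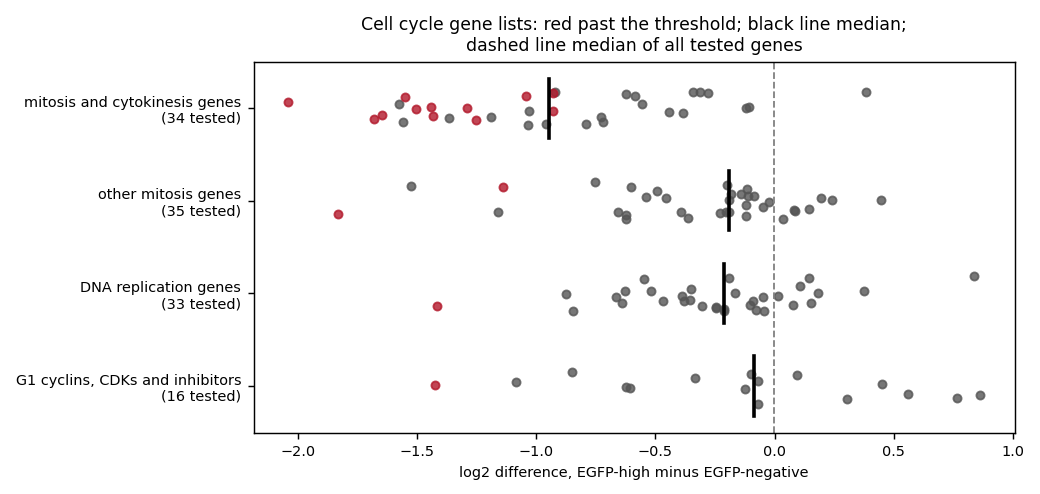
Log2 difference between EGFP-high and EGFP-negative samples for the tested genes of 4 lists; points are genes, red ones past the threshold, black lines medians, and the dashed line the median of all tested genes. Among tested genes, the median of the mitosis and cytokinesis genes, -0.94, lies further below 0 than those of the other 3 lists, -0.19, -0.21 and -0.08. Genes that failed the filter are left out, which are more numerous among the other mitosis genes (35 of 49 tested) than among the members (34 of 36).

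Markers of other cells that the gates could hold were read beside these genes. Of 8 tested markers listed for the hair matrix of the growing follicle, 0 were lower and 1 was higher, Dlx3. The summed intensity of the 10 on the array was 1046 to 1227 in EGFP-high and 762.8 to 1048 in EGFP-negative samples. The tested markers include the keratins Krt31, Krt33b, Krt35 and Krt71 of differentiating follicle cells, so this list is no measure of dividing cells. Of 5 T cell markers on the array 1 was tested and lower, Thy1 (18.4, 59.4 and 85.1 against 164.1, 207.1 and 154.6, adjusted p = 0.0382), a call lost without any 1 of 4 arrays (highest adjusted p 0.119), with no filter and with a smaller pseudocount. The CD3 genes, which failed the filter and were not tested, differed in the other direction, by log2 0.77 for Cd3d, 0.82 for Cd3e and 0.96 for Cd3g. Cd3g read 46.7, 62.8 and 65.3 against 48.4, 6.1 and 16.7 and was above the control level on 1 EGFP-negative array, whereas Cd3d, Cd3e and Cd2 were at or below it on all 3. The sums over the 5 were 124.5 to 324 in EGFP-high and 209.8 to 250.2 in EGFP-negative samples. Of 6 melanocyte markers on the array 3 were tested. Mitf was higher (log2 1.13, adjusted p = 0.0147, lost without replicate 3 of either group, highest adjusted p 0.0599). The others did not pass, Pmel (log2 0.49, adjusted p = 0.479) and Dct (log2 -0.07, adjusted p = 0.890). Those not tested ranged from log2 -0.15 (Tyrp1) to 0.33 (Kit). The sums over the 6 were 337.6 to 515.4 against 282.7 to 313.7. For Langerhans cells and macrophages, fibroblasts, endothelial cells and erythrocytes 0 of 10 tested markers passed, and the ranges of the summed intensity overlapped between the groups in each list. Adgre1 and Lyz2 of macrophages, Col3a1 of fibroblasts, and Cdh5, Tek and Vwf of endothelial cells were at or below the control level on all 6 arrays. The part of these cells in the mitotic gene results was not tested.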

How the data were processed

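Each of 6 samples was measured on 1 Affymetrix mouse array, 3 EGFP-high and 3 EGFP-negative. The authors deposited 1 linear intensity per probe set; the trimmed means (2% at each end) of 150.1 on all 6 arrays show a common scaling. Not given in the sources used here are the software and background method, and the file holds no detection call. The 66 control rows were left out of tests. Of the other 12422 probe sets, 10833 had 1 gene symbol, 396 several and 1193 none listed; 10817 matched RefSeq (GRCm38.p6) by gene identifier, which changed 0 symbols.

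The log2 of intensity plus 19.3, the 25th percentile of all values, was analysed. Probe sets above the 40th percentile of the mean log2 value (7453) were tested with limma 3.58.1 in R 4.3.3 (lmFit, eBayes with intensity trend, 4 residual and 4.96 prior degrees of freedom, two-sided, Benjamini-Hochberg, threshold 0.05). The fit across probe sets was tested on simulated data with independent arrays and differences larger than those of most members. The simulation therefore does not cover smaller differences or the correlation of same-number arrays. A gene was represented by its brightest probe set. The replicate number, shared by the titles of both groups, was taken to pair samples because all 3 same-number correlations were above 0.1. This pairing comes from the data and not from a stated design. The fit with the block left 2 residual degrees of freedom. The members, lists and tests were chosen with earlier results of these data known. Members past the threshold, and the 5 others with the largest differences, are given in every sample. Alternatives changed the pseudocount, a floor, the filter, normalization, the trend, the block, the probe sets and the arrays used. The number of arrays limits the precision.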

Additional observations from a re-analysis of the deposited data

How the results depend on the processing

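Over all alternatives 0 mitosis and cytokinesis genes were higher in EGFP-high. The count lower was 7 of 36 with no filter on low values, where adjustment runs over all 12422 probe sets (130 lower and 197 higher). With the replicate block it was 22, and without arrays it ranged from 0 (without both arrays of number 3) to 17. The block gave 396 probe sets lower and 382 higher among all tested, and left-out arrays 14 to 234 lower and 43 to 266 higher. The median log2 difference moved to -1.10 with a floor at the control level and to -0.65 with 4 times the pseudocount, as these change the scale of dim genes, and ranged from -1.26 to -0.81 without arrays. The 4 calls in the other cell cycle lists became 7 with probe sets averaged, 1 with no filter, 13 with the replicate block and 0 to 6 without arrays. The sign turned for Plk1 with probe sets averaged (-0.31), for Cks1b with EGFP-high replicate 2 (0.0278) or EGFP-negative replicate 1 (0.0289) left out, and for Incenp with EGFP-high replicate 3 (0.0368) or EGFP-negative replicate 1 (0.0012) left out. Over left-out arrays Cks1b ranged from -0.33 to 0.0289 and Incenp from -0.25 to 0.0368. None of these was past the threshold. The cause was not tested. Of 749 single-gene comparisons with the main values, 622 kept direction and side of the threshold, 99 lost a call, 23 gained one and 5 turned. These comparisons include genes of the other lists and the 22 members with no call to lose. The 622 are therefore no measure of how stable the calls were. Levels near the control level, as for Aurkb, Kif20a and Mki67 in EGFP-high, limit the size of the differences.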
